A study of Caenorhabditis elegans with 4 samples.

Results

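The regions described here are those of chromosome II in a map of GEI-11 binding in the nematode Caenorhabditis elegans. They are all rows of chromosome II in the authors' combined list of called regions, 925 of 6192 on all chromosomes, with the 682 chromosome II regions of the replicate 1 list and the 435 of the replicate 2 list. The chromosome was cut into 3 parts of equal length, called left arm, centre and right arm, and a region belonged to the part that held its midpoint. The boundaries lay at 5.09 and 10.2 Mb, with the chromosome taken to end at the last called base, 15263427, in the coordinates of WormBase WS220.

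Binding was measured by chromatin immunoprecipitation and sequencing (ChIP-seq) in whole L3 hermaphrodites grown at 20 °C. All samples came from strain OP179, an unc-119(ed3) mutant that carries the bombarded transgene wgIs179, in which unc-119(+) restores that gene and gei-11 is fused to TY1, EGFP and 3xFLAG. The 4 samples were 2 anti-GFP ChIP libraries and 2 input libraries of the same strain, so no animals without the tagged protein were compared. Whole worms were used, and the tissue in which a region was bound is therefore not known. In total the libraries held 3773496 and 3560372 reads for ChIP replicates 1 and 2, and 8331974 and 7222788 for input. Uniquely mapped reads were given as 2500000 and 2800000 for ChIP, where replicate 2 had more, and as 6000000 for each input. Nothing in the labels says that the replicates were separate cultures, so their differences may be technical.

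GEI-11, also called SNPC-4, is a Myb-type DNA-binding protein and the worm counterpart of a subunit of the small nuclear RNA activating protein complex. That complex binds upstream of small nuclear RNA genes and recruits RNA polymerase there, and in the worm germline SNPC-4 is also needed to transcribe piRNAs, most of whose genes lie on chromosome IV. Worm autosomes have a gene-rich, conserved centre with little recombination, flanked by arms with more repeats and more recombination. No region is assigned to a gene and no sequence is printed, because the gene table at hand is of another build than the lists.

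The left arm of chromosome II carried far fewer regions than the rest of the chromosome. It held 194 combined regions, the centre 360 and the right arm 371. This gave 38.1 regions per Mb in the left arm (95% exact Poisson interval 33.0 to 43.9), 70.8 in the centre (63.6 to 78.5) and 72.9 in the right arm (65.7 to 80.7). The left arm thus had 0.63 times its share by length (two-sided exact binomial test, adjusted p = 3.7e-16 over the 3 parts). The centre had 1.17 times its share (exact binomial test, adjusted p = 0.00037) and the right arm 1.20 times (exact binomial test, adjusted p = 2.6e-05). The 3 parts share 1 total, so a left arm under its share leaves the others together above theirs, and the results are not separate. The intervals of the centre and the right arm overlapped, and their densities were not tested against each other. Called regions covered 83.4 kb, or 1.64%, of the left arm, against 3.29% of the centre and 3.28% of the right arm.

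Each replicate list by itself had a left arm under its share by length and a right arm above it. Replicate 1 had 138 regions in the left arm, 267 in the centre and 277 in the right arm. Replicate 2 had 80, 151 and 204 in the same order. The left arm was at 0.61 times its share in replicate 1 and 0.55 times in replicate 2 (exact binomial tests, adjusted p = 1.5e-13 and 1.3e-11). The right arm was at 1.22 and 1.41 times (exact binomial tests, adjusted p = 0.00012 and 8e-09). The centre passed in replicate 1 at 1.17 times (exact binomial test, adjusted p = 0.0015) but not in replicate 2 at 1.04 times (adjusted p = 0.54 in the exact test), nor among the 371 combined regions that both replicate lists overlap, at 1.10 times (adjusted p = 0.19 in the exact test). These tests treat regions as independent, which neighbours are not, and clustering of regions therefore makes the true p-values larger than those given. They also take every base of the chromosome as equally open to a call. How much of each part reads of 36 bases can map to uniquely was not tested.

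The change in density came as a step near the inner end of the left arm. In 10 bins of equal length, the first 3 held 54, 52 and 51 combined regions, and bin 4 held 122. From there on no bin fell under 87, and bin 10, at the right end, held 132, more than any other. In bins of 1 Mb, those up to 5 Mb held between 26 and 49 regions, and the bin from 5 to 6 Mb held 90, the highest number of any bin. The bin from 14 to 15 Mb followed with 84, of which both replicates found 48. The boundary at 5.09 Mb placed 10 regions of the dense bin in the left arm, and the other 184 left arm regions lay below 5 Mb. At this boundary the last left arm region, from 5081248 to 5081534, had a −log10 q of 4.60, and the first centre region, from 5092320 to 5092724, had 9.11. At the other boundary the last centre region, from 10174288 to 10174597, had 2.28, and the first right arm region, from 10197080 to 10197375, had 4.59. The outermost regions of the chromosome, from 18776 to 19220 and from 15262979 to 15263427, had 9.98 and 8.30, and both replicates found each of them.

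**Figure D1:**
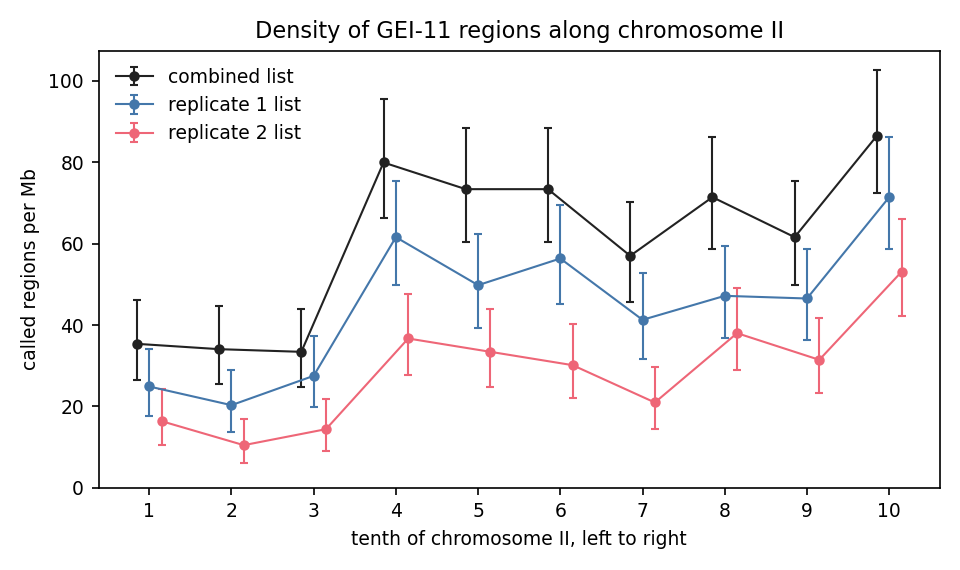
Called regions per Mb in 10 bins of equal length along chromosome II, from left to right, in the combined list and in the list of each ChIP replicate. Bars are exact Poisson 95% intervals; in the combined list the first 3 bins lie between 33.4 and 35.4 regions per Mb and the others between 57.0 and 86.5.

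Compared with each other autosome, chromosome II had a smaller share of its regions in the left arm, while the share of its centre differed from that of chromosome IV alone. The left arm held 21.0% of its regions (95% exact interval 18.4 to 23.7%), against 30.0% on chromosome I, 26.2% on III, 26.1% on IV and 30.8% on V. Fisher's exact test passed against each of them (adjusted p = 7e-05, 0.0087, 0.0036 and 5.5e-06). This comparison was added after the counts were seen. A share depends on the rest of its chromosome, and by density the left arm of chromosome II was not the sparsest part. It had 38.1 regions per Mb, against 36.7 in the right arm of V and 31.7 in the centre of X. The left arms of I and V had 43.2 and 41.2, with 95% intervals that overlapped its own. Left arms were also under their share by length on III and IV, at 0.78 times each (exact binomial tests, adjusted p = 7.5e-06 and 2.9e-11). Those of I, V and X did not pass. Right arms were also above it on IV and X, at 1.30 and 1.36 times (exact binomial tests, adjusted p = 1.7e-18 and 1.5e-12). The right arm of V was under it, at 0.82 times (exact binomial test, adjusted p = 0.00022), and those of I and III did not pass. The centre held 38.9% of the regions of chromosome II, against 40.3% on I, 38.1% on III and 41.7% on V, and these did not pass (Fisher's exact tests, adjusted p = 0.74, 0.74 and 0.47). On chromosome IV the centre held 30.6%, and that difference of 8.32 percentage points passed (Fisher's exact test, adjusted p = 5.3e-05), though it was 1.38 points in the replicate 2 list alone and 1.05 points among regions found in both replicates, and passed in neither.

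**Figure D2:**
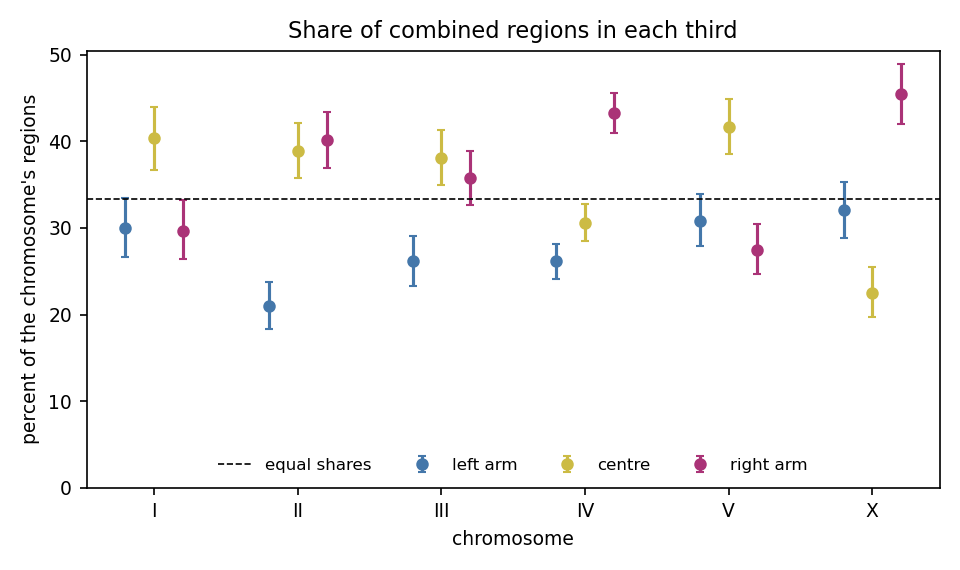
Percent of each chromosome's combined regions in its left, middle and right part of equal length, with exact 95% intervals and a dashed line at equal shares. The left arm of chromosome II, at 21.0%, lies below the left arms of the other chromosomes, at 26.1 to 32.0%.

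Regions were ranked by −log10 of the q-value, called strength here, where q is the false discovery rate that the peak caller PeakSeq assigned to it. It is the authors' value, ranks regions within 1 list and depends on depth. The median strength was 4.43 on chromosome II, with an interquartile range from 2.81 to 8.15. On the other chromosomes it was 4.11, with a range from 2.78 to 7.50. Among the parts, the median was 4.07 in the left arm, 4.21 in the centre and 4.87 in the right arm. The order was the same in the replicate 1 list, with 3.31, 3.47 and 3.98, and in the replicate 2 list, with 3.86, 3.89 and 4.09. These differences were small beside the interquartile ranges and were not tested. Median widths in the combined list were much alike, with 354.5 bp in the left arm, 353.5 bp in the centre and 340.0 bp in the right arm. In the same order they were 325, 329 and 334 bp in replicate 1. The centre was wider in replicate 2, with 352, 400 and 348 bp. It was also wider among combined regions that both replicate lists overlap, with 404.5, 506.5 and 434 bp.

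The parts differed more at the strong end of the list. Of the 620 regions with the smallest q-values, which are 10.0% of the combined list, 107 lay on chromosome II. They made up 11.6% of its regions against 9.74% elsewhere, a difference that did not pass (Fisher's exact test, p = 0.096). Within the chromosome, 12 left arm regions (6.19%), 36 centre regions (10.0%) and 59 right arm regions (15.9%) were of this class. The right arm passed against the left arm, with a difference of 9.72 percentage points (Fisher's exact test, adjusted p = 0.0023 over 3 pairs), and against the centre, with 5.90 points (Fisher's exact test, adjusted p = 0.031). Fisher's exact tests also treat regions as independent, so clustering of neighbours can make these p-values too small. The difference from the centre did not pass in the replicate 2 list alone, at 5.75 points (Fisher's exact test, adjusted p = 0.22). Neither difference passed when regions lacking support from both replicates were left out, with 15.8 points against the left arm and 8.03 against the centre (Fisher's exact tests, adjusted p = 0.075 and 0.21). The centre did not pass against the left arm (Fisher's exact test, adjusted p = 0.15), except with a centre from 5 to 12 Mb, where the difference was 6.57 points (Fisher's exact test, adjusted p = 0.013).

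**Figure D3:**
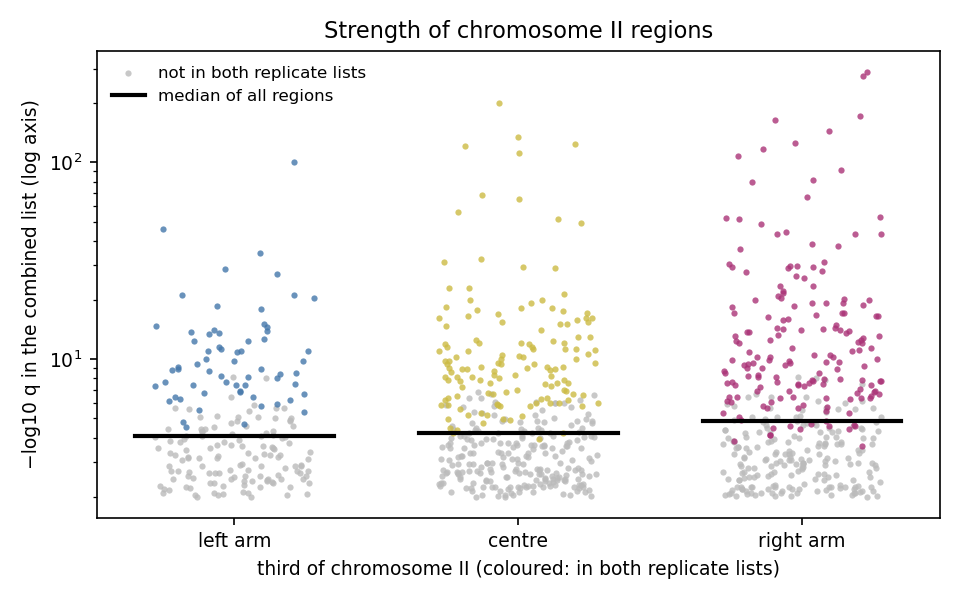
Strength (−log10 q, log axis) of each chromosome II region of the combined list, by part of the chromosome; coloured points were found in both replicate lists, grey points were not, and black lines are medians. Of the listed regions, 1 of 194 in the left arm passes 100, against 5 of 360 in the centre and 8 of 371 in the right arm. The centre region with 265 and 234 in the replicates is not in the combined list analysed here and is not drawn.

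Ranks and counts of strong regions hold for the combined list as analysed here, which may be incomplete. A centre region from 5543219 to 5544605 was first in both replicate lists, at 265 and 234, above the leading right arm region in each, but overlapped no row of that list. Among the listed regions, the right arm, with 371 of the 6192 on all chromosomes, held the strongest and 4 of the 20 strongest. The first, from 13833997 to 13835236, spanned 1240 bp. Its −log10 q was 288 for the combined list, 219.9 for replicate 1 and 212 for replicate 2. The next, from 14803997 to 14805251, was number 3 of the whole list and spanned 1255 bp. It reached 277, with 185 and 202 in the replicates, the only one of these 3 leading right arm regions that was stronger in replicate 2. The region from 15025113 to 15026246 reached 172, with 143 and 138 in the replicates.

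The other leading regions of the right arm were of like width. The region from 12944315 to 12945342 reached 165, with 135 and 121 in the replicates. The region from 14017637 to 14018751 reached 145, with 101 and 104 in the replicates. The region from 11166353 to 11167638 reached 126, with 70.1 and 79.7. These 6 right arm regions were between 1028 and 1286 bp wide, and all but 1 lay in the outer part of the arm beyond 12 Mb. In all, 15 of 371 right arm regions passed a −log10 q of 50, against 9 of 360 in the centre and 1 of 194 in the left arm. Of the 100 strongest regions of the whole combined list, 25 lay on chromosome II, which held 925 of its 6192 regions.

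In the centre, the strong regions lay toward its left side. The strongest of those listed, from 5844392 to 5845264, was 873 bp wide and number 5 of the combined list. It reached 201, with replicate values of 153 and 144. The unlisted region from 5543219 to 5544605 was stronger in each replicate. Among those listed, the region from 6967544 to 6968857 followed with 134 and was nearly equal in the replicates, at 85.2 and 84.8. The region from 5599378 to 5600087 had 124, with 87.4 and 86.7. The region from 7199355 to 7200611 had 121, with 84.3 and 82.6. The region from 5701251 to 5702268 had 112, with 73.6 and 68.3. The last of the 6, from 6491241 to 6492257, had 68.4, with 41.4 and 36.1. All 6 lay between 5 and 8 Mb.

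The left arm had 1 region above 50, and it lay at the inner edge. It spanned 5056694 to 5057842, its midpoint 30.5 kb from the boundary with the centre, and reached 101, with replicate values of 64.1 and 71.6. Another, from 5055134 to 5055592, lay beside it, with 34.6, 20.5 and 18.8 in the same order. With the centre taken from 5 to 12 Mb both belong to the centre. Deeper in the arm, the strongest was a broad region from 2985928 to 2988224. It was 2297 bp wide and had 46.0 in the combined list, while 2 separate regions in each replicate overlapped it, the strongest at 13.8 and 11.8. The region from 255133 to 255745, near the left end, had 28.8, with 16.2 and 13.6 in the replicates. The regions from 4376419 to 4377365 and from 4851643 to 4851993 had 27.3 and 21.3.

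Support by the replicates also differed along the chromosome. A combined region was counted as found in a replicate if a region of that list overlapped it by at least 1 bp. On chromosome II, 371 of 925 regions, or 40.1% (95% exact interval 36.9 to 43.3%), were found in both replicates, where 35.2% of the whole combined list and 34.3% of the regions on other chromosomes were. The difference of 5.78 percentage points from the other chromosomes passed (Fisher's exact test, p = 0.00078). Chromosomes I and IV had the lowest shares, 30.4% and 31.6%, while III (37.4%), V (37.6%) and X (36.8%) had 95% intervals that overlapped that of chromosome II, and single chromosomes were not tested. A further 251 regions (27.1%) were found in replicate 1 only and 53 (5.73%) in replicate 2 only. The remaining 250, or 27.0%, were found in neither, against 30.7% of the whole list.

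The right arm had the best replicate support. Both replicates found 171 of its 371 regions, or 46.1% (40.9 to 51.3%), against 136 of 360 in the centre, or 37.8% (32.7 to 43.0%), and 64 of 194 in the left arm, or 33.0% (26.4 to 40.1%). The right arm passed against the left arm (Fisher's exact test, adjusted p = 0.009 over 3 pairs) and against the centre (Fisher's exact test, adjusted p = 0.037), while the centre did not pass against the left arm (Fisher's exact test, adjusted p = 0.27). Within the stronger 50% of the combined list the right arm no longer passed against either, with differences of 9.23 and 3.54 points (Fisher's exact tests, adjusted p = 0.27 and 0.42). With 50% reciprocal overlap it did not pass against the centre, with 6.52 points (Fisher's exact test, adjusted p = 0.12). Strength moved with support, since regions found in both replicates had a median −log10 q of 9.76 and those found in neither 2.51. The q-values and the replicate lists come from the same reads, so the share of strong regions and the support are not independent measures. The tests of support also treat neighbouring regions as independent, so their p-values can be too small.

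**Figure D4:**
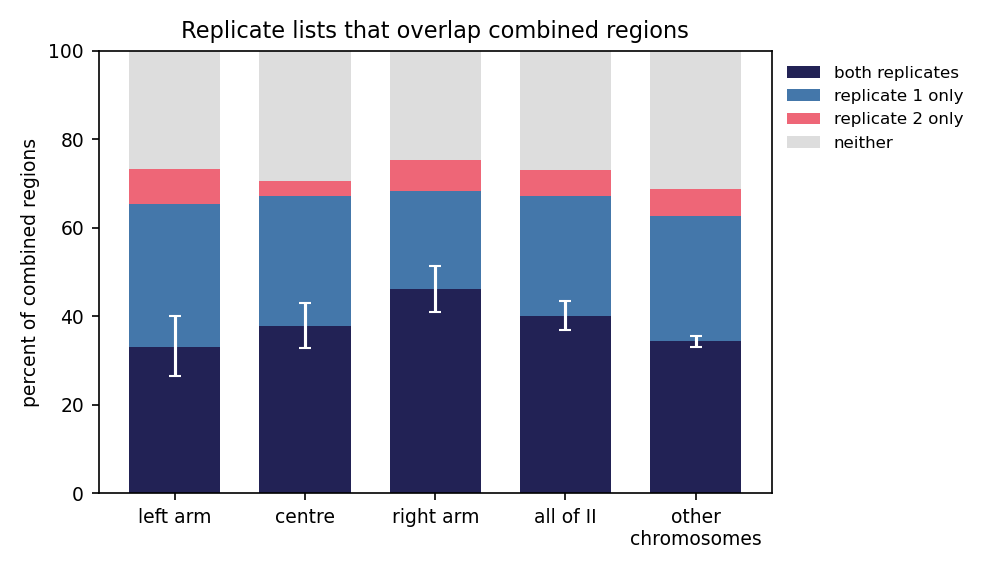
Percent of combined regions overlapped by both replicate lists, by 1 of them or by neither, in the parts of chromosome II, on all of it and on the other 5 chromosomes together. White bars are exact 95% intervals of the share found in both, which runs from 33.0% in the left arm to 46.1% in the right arm.

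Set beside regions of like strength on other chromosomes, those of chromosome II had a higher share found in both replicates in classes 2 to 6 of the list and an equal one in class 1. The whole combined list was ranked by q and divided into 10 classes. All 107 chromosome II regions of class 1 and all 99 of class 2 were found in both replicates, against 100% and 97.1% elsewhere. In class 3 the share was 90.5% on chromosome II and 81.1% elsewhere, in class 4 it was 53.1% and 48.0%, and in class 5 it was 23.4% and 18.3%. In class 6 it was 5.26% and 3.43%. In classes 7 to 10 no chromosome II region was found in both, and the shares elsewhere were 0, 0.19, 0 and 0%. Differences within classes were not tested, and the classes match q but not width. Of the regions elsewhere 6.00% were under 50 bp wide, against 2.70% on chromosome II. Without such regions the difference in support over the whole list was 4.70 points and still passed (Fisher's exact test, p = 0.0078). The right arm had 59 regions in class 1 and 43 in class 2, the centre 36 in each, and the left arm 12 and 20.

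For regions found in both replicates, the matched calls overlap the same combined region, so their midpoints had to lie close together. The midpoints of the matched calls lay a median of 31 bp apart (interquartile range 11.75 to 66.5 bp). Their median width was 377 bp in replicate 1, 369 bp in replicate 2 and 443 bp in the combined list. Across the 371 regions the strengths in the replicates had a Spearman's rho of 0.76, with 0.64 over the 64 left arm regions, 0.75 over the 136 of the centre and 0.82 over the 171 of the right arm. These values are descriptions across regions of 1 library pair, and the sample sheet names a shared input signal for both lists. Replicate 1 had the higher −log10 q for 247 of the 371.

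**Figure D5:**
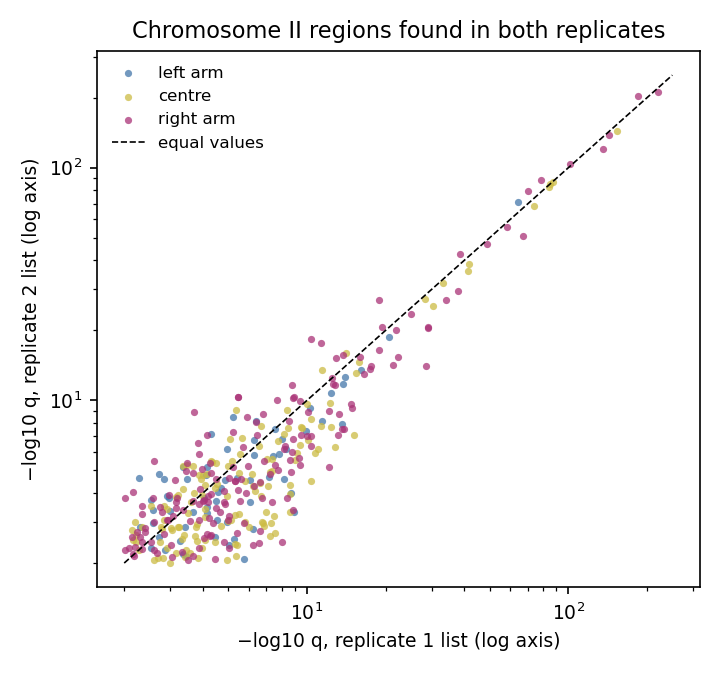
Strength (−log10 q) of the 371 chromosome II regions found in both replicate lists, with replicate 1 on the x axis and replicate 2 on the y axis, both log axes, coloured by part of the chromosome. The dashed line marks equal values; 247 regions lie on the side of replicate 1, and the strongest lie close to the line.

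The widest regions were not the strongest. The widest of the chromosome, in the right arm from 14404890 to 14408240, spanned 3351 bp with a −log10 q of 51.5. In replicate 1 it was called as 3 regions and in replicate 2 as 2. The region from 13289241 to 13291940 spanned 2700 bp, with 52.3, and was a single region in each replicate, at 29.0 and 20.6. In the centre, the region from 9282613 to 9285502 spanned 2890 bp and had 31.3, while none of its 3 pieces in replicate 1 and 2 pieces in replicate 2 exceeded 11.7. The region from 9618885 to 9621640 spanned 2756 bp with 9.75, and its pieces reached 3.75 and 2.00. In the left arm the region from 4906411 to 4908628 spanned 2218 bp with 5.64 and was found in replicate 1 only, at 2.68. Widths over 1000 bp were seen in 54 chromosome II regions, 5.84% against 4.10% elsewhere. Single chromosomes had 5.94% (I), 4.31% (III), 2.05% (IV), 4.73% (V) and 6.17% (X), so chromosome II did not stand out. Widths under 50 bp were seen in 25 chromosome II regions, or 2.70% against 6.00% elsewhere. Of the narrow regions elsewhere, 238 lay on chromosome IV.

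The strongest combined regions that neither replicate list held were weak throughout. In the centre they were the regions from 7230376 to 7230909, with a −log10 q of 4.65, and from 9716629 to 9716939, with 4.19. In the right arm they lay from 14599287 to 14599480 and from 10925778 to 10926414, with 4.64 and 4.48. In the left arm they lay from 2647046 to 2647889 and from 4791326 to 4791763, with 4.42 and 3.85. No chromosome II region above 4.65 was missed by both replicates. The combined list rests on the merged reads of the same replicates, so a region missed by both could hardly be strong in it.

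Few replicate regions had no counterpart in the combined list, and all but 1 were weak. In replicate 2 this held for 1 of 435 regions (0.23%, 95% exact interval 0.0058 to 1.27%), against 0.825% on the other chromosomes. In replicate 1 it held for 39 of 682 (5.72%, 4.10 to 7.73%), against 8.95% elsewhere. Of the 39, 10 lay in the left arm, 17 in the centre and 12 in the right arm, and their median width was 122 bp. Their median −log10 q was 2.17, close to the limit of 2 that a q of 0.01 gives. The exception was the same region in both lists, called from 5543219 to 5544605 by the first replicate list and from 5543178 to 5544535 by the other. With 265 and 234 it ranked first in both replicate lists, over all chromosomes, and lay 20.8 kb from the nearest combined region analysed here. Whether the full combined list holds a row there is not known, so its absence is not read as a failure to be called. After it, the strongest of replicate 1 without a counterpart lay from 10049366 to 10049565 with 3.46, from 13548121 to 13548225 and from 11143238 to 11143399 with 2.71 each, and from 13165180 to 13165184 with 2.58. None of these 4 was found in replicate 2.

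Of all chromosome II regions in the replicate lists, 388 of 682 in replicate 1 (56.9%) and 380 of 435 in replicate 2 (87.4%) overlapped a region of the other list. On the other chromosomes the shares were 49.97% and 83.9%.

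Spacing followed density. The median gap between neighbouring combined regions was 10155 bp in the left arm, 7603 bp in the centre and 6063 bp in the right arm, against 7478 bp on the other chromosomes. Gaps under 1000 bp made up 8.29% of those in the left arm, 13.4% in the centre and 14.1% in the right arm. The share was 12.6% on all of chromosome II and 12.6% on the other chromosomes. Joined by such gaps, 30 of the 194 left arm regions (15.5%), 85 of 360 in the centre (23.6%) and 94 of 371 in the right arm (25.3%) stood in chains of 2 or more. The longest chain of the centre held 4 regions from 5701251 to 5705069, led by the region with 112 named above, and both replicates found 2 of them. The right arm had 2 chains of 4, the first from 10545840 to 10552416, with 3 regions found in both replicates and strengths up to 13.2. In the left arm no chain held more than 3 regions, and the first of its 2 chains of that size ran from 3958235 to 3961628. After regions within 1000 bp were merged, 178, 312 and 319 loci were left in the left arm, centre and right arm, and the left arm was still at 0.66 times its share by length (exact binomial test, adjusted p = 5.4e-12).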

How the data were processed

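The source column of each deposited list names PeakSeq, and its q-values (false discovery p-values) were used as deposited. Library read counts come from the sheet the authors deposited with the lists, in which the combined list is tied to merged ChIP alignments and all lists to 1 input signal file. Which aligner and which PeakSeq options were used is not given in the sources at hand. The lists' header lines name WS220 and the sample sheet WS190. Comment lines record that coordinates were moved after calling and that 3 chromosome II regions of the combined list changed shape.

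The lists were read without a filter with Python 3.11 and pandas 2.3.3, and tests were run with SciPy 1.17.1. Numbers by part were compared with length by two-sided exact binomial tests and shares by two-sided Fisher's exact tests, with Benjamini-Hochberg adjustment within each set and a threshold of 0.05. All of these tests treat regions as independent, and the regions come from 1 library pair. Intervals are exact Poisson or Clopper-Pearson 95% intervals and cover counting error only. Region calls carry no read counts, so single regions have no error. The functions were checked on made-up regions first.

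In each part, the regions named are the 6 strongest found in both replicates, the 2 widest and the 2 strongest found in neither. The 5 strongest replicate regions without a combined counterpart, the regions at the boundaries and the longest chains are also named. The members, parts and tests were chosen with earlier results of these data known. The full-length alternative used rounded lengths of the worm chromosomes.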

Additional observations from a re-analysis of the deposited data

How the results depend on the processing

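Of 141 alternatives to 19 values, 123 kept the direction and the side of the threshold, 13 lost the call, 1 gained it and 4 reversed. The left arm under its share (0.52 to 0.66 times) and the right arm above it (1.18 to 1.41 times), which are not separate results, passed in every alternative run. So did the support of chromosome II against the others (4.31 to 6.74 points) and its left share against each autosome. The last of these comparisons, with its alternatives, was chosen after seeing the data. The centre, at 1.17 times its share, lost its call in the stronger 50% of the list (1.11 times), among regions found in both replicates (1.10 times) and over the single replicate lists, at 1.04 to 1.17 times, in that of replicate 2. In the stronger 50% the right arm also lost its support call against the left arm (9.23 points) and the centre (3.54), its strong share against the centre (7.64), and the centre its share against chromosome IV (6.01). With 50% reciprocal overlap the support of the right arm over the centre was 6.52 points and did not pass. Among regions found in both, the strong share of the right arm did not pass against the left arm (15.8 points) or the centre (8.03), nor did the centre share against chromosome IV (1.05). Over the single replicate lists the strong share of the right arm over the centre was 5.75 to 6.52 points and the centre share over chromosome IV was 1.38 to 8.39 points, and both were lost in replicate 2. With the centre from 5 to 12 Mb it passed over the left arm in strong share (6.57 points). The centre share against chromosome III, 0.81 points and not called, reversed to -3.53 in the stronger 50%, to -3.40 among regions found in both and to between -4.74 and -1.98 in the replicate lists. Subsets hold fewer regions; otherwise the cause was not tested. No paired analysis was possible because each list sets ChIP against input in a single q-value, so no ChIP and input values can be paired by number. A region missing from a replicate list is not shown to be unbound there.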

Other observations

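The longest stretches of chromosome II without a combined region lay in the left arm. One ran from 3209592 to 3428218, or 219 kb, and no region of either replicate list fell in it. The next ran from 1502347 to 1685201, or 183 kb, with 1 region of replicate 1 inside. In the centre the longest ran from 9429646 to 9577626, or 148 kb, with 2 regions of replicate 1 and none of replicate 2, and in the right arm from 12108110 to 12222338, or 114 kb, with 1 region of replicate 1. The longest gap on the other chromosomes was 230783 bp. Only 39 of 682 replicate 1 regions and 1 of 435 replicate 2 regions on chromosome II overlapped no combined region. A stretch without combined regions is therefore nearly bound to be empty in those lists as well. These stretches were picked for their length, so no test was made.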
